A study of Homo sapiens with 4 samples.

Results

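The 10 genes described here make, read or use methylation of histone H3 at lysine 9 (H3K9): the methyltransferase genes SUV39H1, SUV39H2, SETDB1, EHMT1 and EHMT2, the HP1 genes CBX1, CBX3 and CBX5, the corepressor gene TRIM28 and the chromatin remodeller gene ATRX. They were chosen by gene symbol, and each symbol matched 1 row of the 58870 genes in every table. All 10 passed the filter on low counts, as did 16749 genes in all. The cells were BJ, an established human skin fibroblast line, and total RNA was sequenced in 2 groups of 2 libraries. Control cells were given the solvent DMSO and treated cells Dox at 250 nM, an abbreviation that the labels do not spell out. Exposure lasted 24 hours, and by the series design the cells were then left for 10 days to senesce, although the wording of the sample protocol can also be read as 10 days of incubation before the exposure. The sample titles call the control libraries YOUNG CONTROL and the treated ones AGEDDox, although both groups are the same line and differ by treatment. The labels do not say whether replicates were separate cultures, so each p-value reflects only how far these libraries spread, which may be technical.

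H3K9 methylation marks chromatin that is packed and mostly silent. SUV39H1 and SUV39H2 place trimethyl marks at repeats around centromeres, SETDB1 places them mainly at transposons with TRIM28 as its bridge to DNA-bound zinc finger proteins, and EHMT1 and EHMT2 (GLP and G9a) work as a pair on mono- and dimethylation in gene-rich regions. HP1 proteins bind the mark through a chromodomain and pair with each other and with partner proteins through a chromoshadow domain, while ATRX, with its partner DAXX, deposits the histone variant H3.3 at such repeats. In senescent fibroblasts H3K9 methylation and HP1 are best known from the dense nuclear foci that can form as cells stop dividing.

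The libraries were deep, and the treated pair differed from each other far more than the control pair. Expected counts totalled 42744729 and 47798920 for DMSO and 42880682 and 43429426 for Dox. Counts of the 2 DMSO libraries differed by a chi-square of 2.4 per degree of freedom, and those of the 2 Dox libraries by 60.5. The log2 ratio of Dox replicate 2 to Dox replicate 1 followed the GC content of the longest transcript (Spearman rho 0.62 over 16717 genes, which are not independent replicates), against 0.03 for the DMSO pair. The median TPM (RSEM's transcript level, corrected for length) of tested genes was 1.38 and 1.41 in DMSO, 1.19 in Dox replicate 1 and 1.99 in Dox replicate 2, so TPM values of one gene are not on one scale across libraries. Of 11 fibroblast markers, all tested, 5 were higher and 3 lower in Dox by edgeR, where 16.5% and 13.8% of all tested genes were. The lower ones were PDGFRB, PDGFRA and COL3A1, and the summed TPM was 2411 and 2478 in DMSO and 1904 and 3478 in Dox. Of the 10 proliferation reference genes, such as MKI67 and TOP2A, 10 were lower in Dox by edgeR, with a median log2 fold change of -1.33. Of 5 immune cell markers PTPRC and CD68 were higher in Dox, CD14 did not pass, CSF1R was not tested and CD3E had no count in any library. The summed TPM of the immune list was 1.16 to 1.18 in DMSO and 4.12 to 7.33 in Dox. CD68 held most of it, with 1.11 and 1.06 TPM in DMSO and 3.92 and 6.92 TPM in Dox. PTPRC had 0.01 and 0.02 TPM in DMSO and 0.14 and 0.21 TPM in Dox. KRT5 and KRT1 of the 6 keratinocyte markers had no count, and DSG3 went from no count to 0.912 and 0.992 CPM. The summed TPM of the list was 5.57 in both DMSO and 6.92 to 8.84 in Dox libraries. KRT10 held most of it, with 5.53 and 5.54 TPM in DMSO and 6.85 and 8.64 TPM in Dox. Neither KRT10 (edgeR adjusted p = 0.202) nor CDH1 (log2 fold change -0.48) passed. Of 5 melanocyte and 5 endothelial markers 1 and 2 were tested and 0 passed, and SOX10 had no count. PECAM1, CDH5 and KDR went from no count in DMSO to 2 to 10 counts in each Dox library. The tested endothelial markers, VWF and TEK, had log2 fold changes of 0.87 and -0.39. TEK had 162 and 215 counts in DMSO and 130 and 156 in Dox, while VWF had 4 to 11 counts. In the melanocyte and endothelial lists the summed TPM stayed at or below 0.1 and 0.41. What part cell cycle exit or other cell types have in the results below was not tested.

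Within a library, TRIM28 had the highest level per length of the 10 genes and SUV39H1 the lowest. In the DMSO libraries TRIM28 stood at 26.6 and 25.7 TPM, CBX3 at 15.2 and 15.9 TPM, CBX1 at 8.81 and 8.93 TPM, ATRX at 4.19 and 4.29 TPM and CBX5 at 3.57 and 3.53 TPM. These 5 levels did not overlap between neighbours in the order. EHMT1 with 2.92 and 3.42 TPM and SETDB1 with 2.97 and 3.15 TPM overlapped, followed by EHMT2 (2.3 and 2.67 TPM), SUV39H2 (0.67 and 0.76 TPM) and SUV39H1 (0.24 and 0.2 TPM). In Dox replicate 1 ATRX (6.78 TPM) stood above CBX1 (5.78 TPM), whereas in Dox replicate 2 CBX1 (9.36 TPM) stood above ATRX (8.95 TPM). TRIM28 and CBX3 remained the upper pair in both Dox libraries, with 21.95 and 10.75 TPM in replicate 1 and 44.4 and 16.2 TPM in replicate 2.

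SETDB1, CBX1 and CBX3 fell in Dox, ATRX rose, and the other 6 genes did not pass the test. The falls were small, 1.29- to 1.37-fold, and the rise of ATRX was 1.68-fold. By edgeR's quasi-likelihood test at a Benjamini-Hochberg adjusted p under 0.05, 3 of 10 genes were lower and 1 was higher, where 13.8% and 16.5% of all tested genes were lower and higher (30.3% either way). The 4 calls among 10 genes are near that background. The median log2 fold change was -0.16 over the 10 genes and -0.0023 over all tested genes. CPM values (counts relative to the library total, scaled by TMM) of both Dox libraries lay below both DMSO libraries for SUV39H2, SETDB1, CBX1 and CBX3 and above them for CBX5 and ATRX. The groups thus did not overlap for 4 genes downward and 2 upward, where 34.5% and 34.6% of all tested genes did so, or 69.1% in either direction. On the TPM scale 2 genes, CBX5 and ATRX, lay above both controls and 0 below, where 26.6% and 9.43% of all tested genes did. In bulk RNA, fewer cells that express a gene and less of its RNA per cell cannot be told apart. Leaving out either DMSO library ended the calls of SETDB1, CBX1 and CBX3, with 0 lower genes in each case, and left that of ATRX. Leaving out Dox replicate 1 gave 3 higher and 3 lower genes, and leaving out Dox replicate 2 gave 2 higher and 6 lower.

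**Figure D1:**
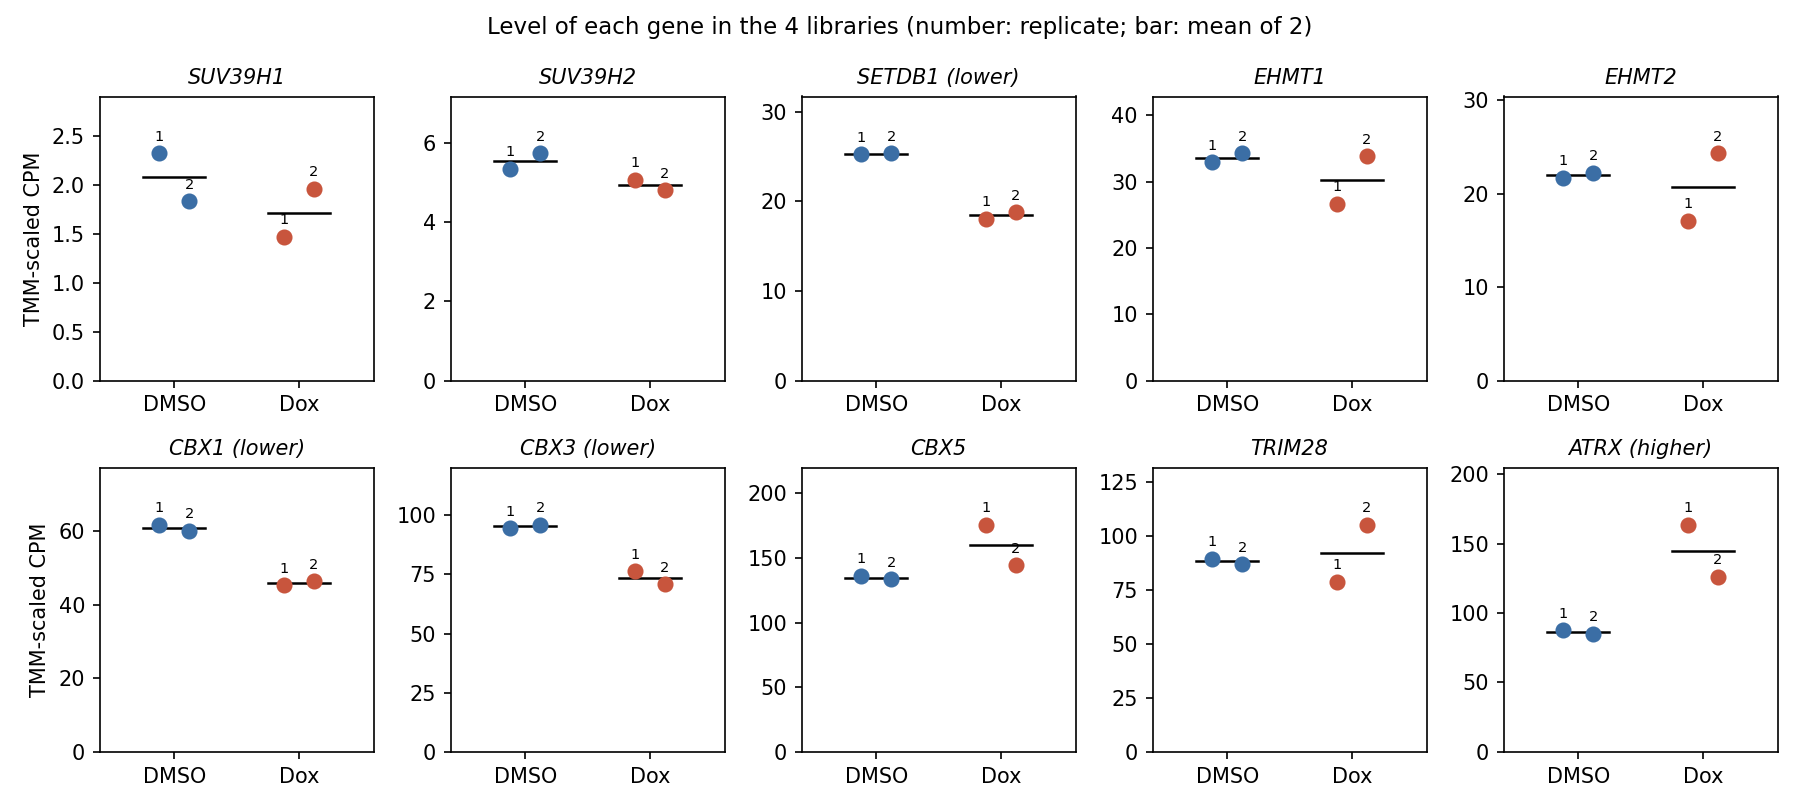
TMM-scaled CPM (vertical axes, starting at 0) of each of the 10 genes in the 2 DMSO and 2 Dox libraries, with replicate numbers at the points and bars at the group means. SETDB1, CBX1 and CBX3 have tight pairs that lie apart, ATRX lies higher in both Dox libraries, and the Dox replicates of EHMT1, EHMT2 and TRIM28 lie on both sides of, or reach, the DMSO pair.

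The HP1 genes, which encode the readers of the mark, did not move together. CBX1 encodes HP1-beta (chromosome 17, 48070052 to 48101521 in GRCh38, minus strand). It had 61.7 and 59.98 CPM in DMSO and 45.2 and 46.3 CPM in Dox. Its mean fell from 60.8 ± 1.22 to 45.8 ± 0.773 CPM (SD, n = 2 each), a log2 fold change of -0.41 (SE 0.07, edgeR adjusted p = 0.00677). The gap between the groups was far wider than either pair's spread, and leaving out Dox replicate 1 or 2 gave -0.41 or -0.43. CBX3 encodes HP1-gamma, the HP1 protein found also along active genes (chromosome 7, 26201162 to 26213356, plus strand). It had 94.6 and 96.1 CPM in DMSO and 76.4 and 70.9 CPM in Dox. Both Dox libraries were below both controls, and CBX3 fell by 0.37 on the log2 scale (SE 0.08, edgeR adjusted p = 0.0134). CBX5 encodes HP1-alpha, known from pericentromeric chromatin (chromosome 12, 54230940 to 54280133, minus strand). It had 136 and 133.5 CPM in DMSO, and its Dox replicates 1 and 2 had 176 and 144 CPM. The groups did not overlap, but the Dox libraries lay far apart, and the log2 fold change of 0.25 (SE 0.11) did not pass (edgeR adjusted p = 0.13). With offsets for the GC trend of each library CBX5 had a log2 fold change of 0.28 and passed (edgeR adjusted p = 0.0135, range 8.36e-24 to 1 over the alternatives). CBX5 also passed with either Dox library left out, at 0.08 without replicate 1 (edgeR adjusted p = 0.0477) and 0.38 without replicate 2 (edgeR adjusted p = 8.36e-24), fits in which the lone Dox library is assumed to vary like the DMSO pair.

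Among HP1 transcripts the CBX5 share was higher in both Dox libraries than in both controls, though CBX5 itself did not pass. Per length, CBX5 made up 12.9% and 12.5% of the summed HP1 TPM in DMSO and 19.4% and 17.2% in Dox. CBX3 made up 55.1% and 56.0% in DMSO and 52.4% in each Dox library, and CBX1 31.9% and 31.5% in DMSO and 28.2% and 30.4% in Dox. The Dox share of CBX5 was above both controls and the shares of CBX1 and CBX3 were below them. The shares make up a whole, so a higher CBX5 share lowers the others together. For single genes, CPM groups did not overlap in 69.1% of all tested genes. How often shares within a gene family do so was not counted. The mean difference for CBX5 was 5.61 percentage points, with an SD of 0.333 among the 2 DMSO and 1.59 among the 2 Dox shares. These shares are free of the scale of a library, but 2 against 2 libraries cannot give an exact two-sided permutation p below 0.333, so no test is given. In reads, the ratio of CBX5 to CBX3 was 1.44 and 1.39 in DMSO and 2.3 and 2.03 in Dox. The ratio of CBX1 to CBX3 was 0.652 and 0.624 in DMSO and 0.592 and 0.653 in Dox, and these overlapped.

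**Figure D2:**
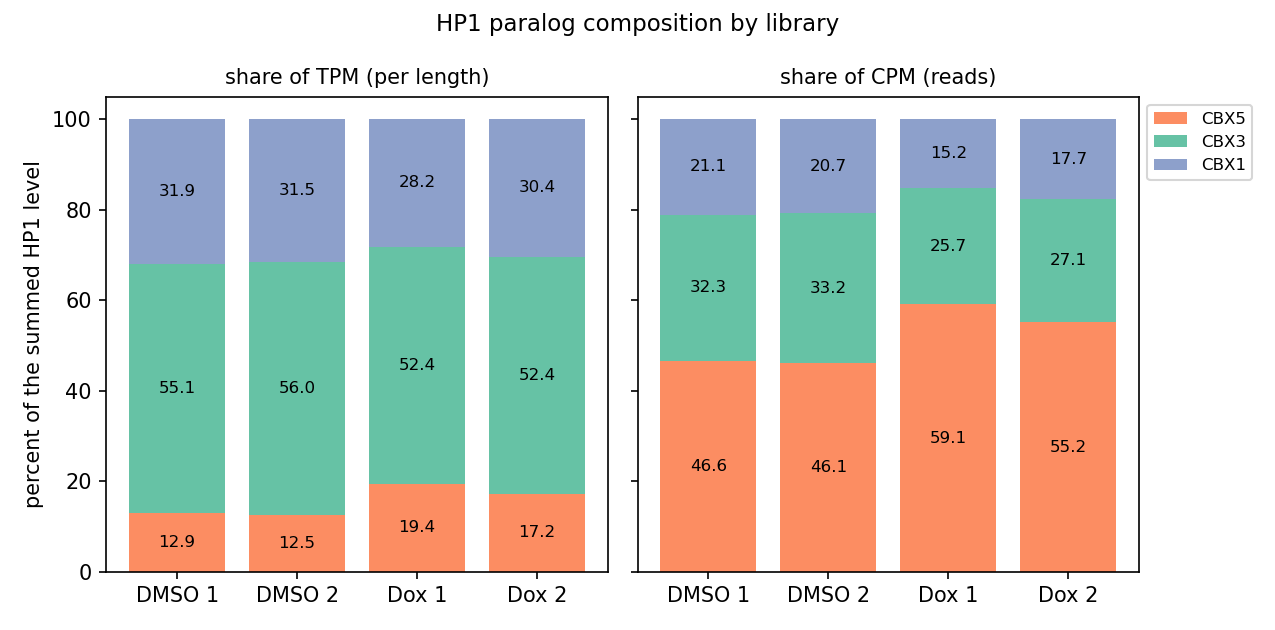
Share (percent, vertical axis from 0) of CBX1, CBX3 and CBX5 in their summed TPM (left) and summed CPM (right), 1 bar per library. The CBX5 share is 12.5 to 12.9% of TPM in the DMSO libraries and 17.2 to 19.4% in the Dox libraries, and it is larger on the CPM scale, which is not corrected for length.

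CBX3 and CBX5 each start head to head with a gene of the hnRNP family, RNA-binding proteins that package and splice pre-mRNA. In GENCODE 29 the annotated starts of CBX3 and HNRNPA2B1 lie 367 bases apart on opposite strands, so that the 5′ ends of their gene models overlap by 368 bases. Those of CBX5 and HNRNPA1 lie 60 bases apart on opposite strands, with 59 bases between them. Sequence from these start regions is shown because 2 genes with different values start there in opposite directions, with gene models that overlap for CBX3 and a gap for CBX5. For CBX3 it is chr7:26201425-26201454 on the plus strand, 30 bases that begin 18 bases before the RefSeq start and lie in a 5′ exon of a longer GENCODE 29 transcript. For CBX5 it is the gap of 59 bases to HNRNPA1, chr12:54280134-54280192 on the minus strand, which begins 70 bases before the RefSeq start. Both were taken from RefSeq on GRCh38.p14.
CBX3: GGGCGGagtccggtTTTGGCGCcagccgct
CBX5: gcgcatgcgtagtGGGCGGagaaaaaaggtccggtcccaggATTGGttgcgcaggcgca
Capitals mark matches, on either strand, to the GC box GGGCGG, the CCAAT box CCAAT and the E2F words TTTGGCGC, TTTGCCGC, TTTCGCGC and TTTCCCGC, and these matches do not overlap. The E2F word of CBX3 has its first base 4 bases before the start. The CCAAT box of CBX5 is read on the other strand, as ATTGG. In windows from 250 bases before to 30 bases after the RefSeq start, CBX3 held no other match and CBX5 held 1 more GC box, 9 bases into the transcript. Of 35116 RefSeq windows of this length, 44.1% held a GC box, 33.6% a CCAAT box and 3.14% an E2F word. The cell cycle element CHR (TTTGAA or TTCGAA), not marked above, was held by 15.6% of windows. Of the 10 genes, 8 had a RefSeq window, of which 5 held a GC box, 1 a CCAAT box, 1 an E2F word and 1 (SUV39H2) a CHR. The 2 with no window were TRIM28 and ATRX.

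The log2 fold changes of the hnRNP genes had the opposite sign to that of the HP1 gene at the same start region, though not every gene passed. HNRNPA2B1 had 109 and 108 CPM in DMSO, and its Dox replicates 1 and 2 had 163 and 119 CPM. Its log2 fold change of 0.38 (SE 0.14) did not pass (edgeR adjusted p = 0.0972), while CBX3 fell. HNRNPA1 had 309 and 314 CPM in DMSO and 252 and 253 CPM in Dox. It fell by 0.31 on the log2 scale (SE 0.07, edgeR adjusted p = 0.0207), while CBX5 stood higher in both Dox libraries without passing. The labels do not state a stranded protocol, so reads from the stretch where CBX3 and HNRNPA2B1 overlap cannot be told apart. The difference in response within each pair was not tested. EHMT1 starts 57 bases from the antisense RNA gene ARRDC1-AS1, which had 4.74 and 5.2 CPM in DMSO and 3.67 and 4.87 CPM in Dox and did not pass. Its log2 fold change of -0.22 had the same sign as that of EHMT1 (-0.15). SUV39H2 (-0.17) starts 134 bases from the noncoding RNA gene AC069544.1 (-0.32, 12 to 17 counts), with the same sign, and neither passed. C2, 98 bases from EHMT2, and RN7SL525P, 513 bases from TRIM28, did not pass the filter on low counts.

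Among the 5 methyltransferase genes, SETDB1 was the 1 that passed the test, and whether its change differs from that of the other 4 was not tested. SETDB1 (chromosome 1, 150926263 to 150964744, plus strand) encodes the enzyme that trimethylates H3K9 at transposons and zinc finger gene clusters. It had 25.3 CPM in each DMSO library and 18.1 and 18.8 CPM in the Dox libraries. The mean went from 25.3 ± 0.0599 to 18.4 ± 0.5 CPM (SD, n = 2 each), so SETDB1 fell by 0.46 on the log2 scale (SE 0.08, edgeR adjusted p = 0.00874). The gap between groups was many times the SD of either pair. SETDB1 overlaps the ceramide synthase gene CERS2 by 4162 bases on the other strand, and CERS2 had 3557, 4021, 3799 and 4166 counts in DMSO 1, DMSO 2, Dox 1 and Dox 2 against 1054, 1188, 773 and 852 for SETDB1. On TPM rescaled by TMM, an alternative added after seeing the data, SETDB1 had a log2 fold change of -0.28 and did not pass (limma adjusted p = 0.112).

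TRIM28, also known as KAP1, is the scaffold that brings SETDB1 and HP1 to KRAB zinc finger proteins (chromosome 19, 58544091 to 58550722, plus strand). It had 89.4 and 87.0 CPM in DMSO, and 78.8 and 105 CPM in Dox replicates 1 and 2. The Dox libraries lay on both sides of the controls, and the log2 fold change was 0.06 (SE 0.14, edgeR adjusted p = 0.764). TRIM28 was called higher without Dox replicate 1 (0.24, edgeR adjusted p = 5.39e-09) and lower without Dox replicate 2 (-0.16, edgeR adjusted p = 0.000301). No direction can be given for it from these libraries. The ratio of SETDB1 to TRIM28 reads was 0.282 and 0.291 in DMSO and 0.229 and 0.1785 in Dox, below the controls in both.

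SUV39H1 and SUV39H2, whose enzymes trimethylate H3K9 at pericentromeres, were the 2 least abundant of the genes and did not pass. SUV39H1 (chromosome X, 48695554 to 48709012, plus strand) had 97 and 86 counts in DMSO and 63 and 89 counts in Dox. These are 2.32, 1.83, 1.47 and 1.96 CPM, and the groups overlapped (log2 fold change -0.27, SE 0.23, edgeR adjusted p = 0.408). At this depth, with 63 to 97 counts, the change of -0.46 seen for SETDB1 lies within 1 SE of this estimate. SUV39H2 (chromosome 10, 14878820 to 14904315, plus strand) had 5.34 and 5.74 CPM in DMSO and 5.07 and 4.81 CPM in Dox. Both Dox values were below both controls, but the log2 fold change of -0.17 (SE 0.13) did not pass (edgeR adjusted p = 0.373). SUV39H2 overlaps the nuclease gene DCLRE1C by 6957 bases on the other strand, where DCLRE1C had 449 and 524 counts in DMSO and 535 and 612 in Dox. The ratio of SUV39H2 to SUV39H1 reads, 2.3 and 3.13 in DMSO and 3.44 and 2.45 in Dox, overlapped between groups.

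EHMT1 and EHMT2, which encode the GLP and G9a subunits of one dimethyltransferase, kept similar ratios to each other while the Dox libraries differed. EHMT1 (chromosome 9, 137618963 to 137870016, plus strand) had 32.9 and 34.3 CPM in DMSO, and 26.7 and 33.8 CPM in Dox replicates 1 and 2 (log2 fold change -0.15, SE 0.12, edgeR adjusted p = 0.393). EHMT2 (chromosome 6, 31879759 to 31897687, minus strand) had 21.7 and 22.3 CPM in DMSO, and 17.1 and 24.3 CPM in Dox replicates 1 and 2 (log2 fold change -0.08, SE 0.16, edgeR adjusted p = 0.728). For both genes Dox replicate 1 lay below the controls and Dox replicate 2 lay within or above them. Both were called lower without Dox replicate 2 (log2 fold changes of -0.34 and -0.36, edgeR adjusted p = 1.64e-07 and 9.98e-07). Without Dox replicate 1, EHMT1 had a log2 fold change of -0.0027 and EHMT2 of 0.13. The ratio of EHMT2 to EHMT1 reads was 0.66 and 0.65 in DMSO and 0.642 and 0.719 in Dox.

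ATRX, the SWI/SNF-family remodeller that places H3.3 at telomeric and pericentromeric repeats, had the largest change of the 10 genes. It lies on chromosome X from 77504878 to 77786233 on the minus strand. ATRX had 87.65 and 85.2 CPM in DMSO, and 164 and 126 CPM in Dox replicates 1 and 2. Both Dox libraries lay well above both controls although they differed from each other by more than the controls did. The mean went from 86.4 ± 1.74 to 144.9 ± 26.6 CPM (SD, n = 2 each), so ATRX rose by 0.75 on the log2 scale (SE 0.13, edgeR adjusted p = 0.00744). Leaving out Dox replicate 1 or 2 gave 0.53 or 0.92. With GC-trend offsets it was 0.73 (edgeR adjusted p = 0.000142). It did not pass on log2(TPM + 1), where the value was 0.75 (limma adjusted p = 0.442), nor for a fold above 1.5 (edgeR glmTreat adjusted p = 0.304). Its range of adjusted p over all alternatives was 1.18e-125 to 0.442.

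**Figure D3:**
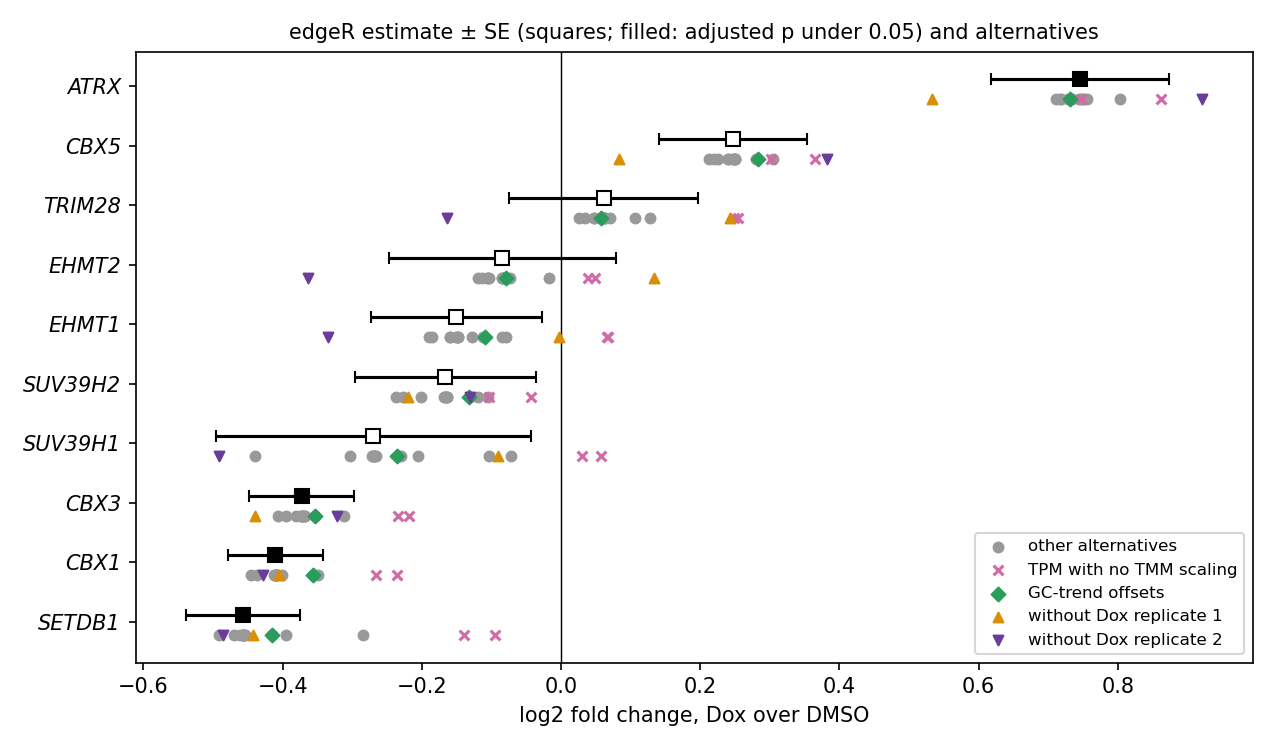
Log2 fold change of Dox over DMSO (horizontal axis) for each gene. Squares with bars are the edgeR estimate and its SE, filled where the adjusted p is under 0.05, and the symbols beneath are the alternatives. ATRX stays right of 0 and SETDB1, CBX1 and CBX3 stay left of it under every alternative drawn, while EHMT2 and TRIM28 lie on both sides depending on which Dox library is left out.

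The difference between the 2 Dox libraries in these genes largely followed GC content, though not in strict order. ATRX, the gene with the lowest GC content (36.9% in its longest transcript), had a log2 ratio of Dox replicate 2 to replicate 1 of -0.38. The ratio was -0.11 for CBX3 (39.5% GC), -0.08 for SUV39H2 (41.1%) and -0.29 for CBX5 (41.8%). It was near 0 for CBX1 (0.03, 47.6%) and SETDB1 (0.06, 50.9%), which sit in the middle of the range. It was 0.34 for EHMT1 (53.5%), 0.41 for SUV39H1 (57.6%), 0.51 for EHMT2 (60.9%) and 0.42 for TRIM28 (63.7%). Over the 10 genes Spearman's rho was 0.95, a description across genes that share the same 2 libraries. The 3 genes that fell were ones whose Dox libraries lay close together, with ratios between -0.11 and 0.06. SUV39H2, at -0.08, lay in that range too and did not pass, and the spread of the Dox pair enters the test. Over all tested genes GC content and the log2 fold change of Dox over DMSO had a rho of -0.03. With GC-trend offsets the same 3 genes were lower and ATRX and CBX5 were higher, in a fit that called more of all tested genes. What part GC content has in these changes was not tested.

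**Figure D4:**
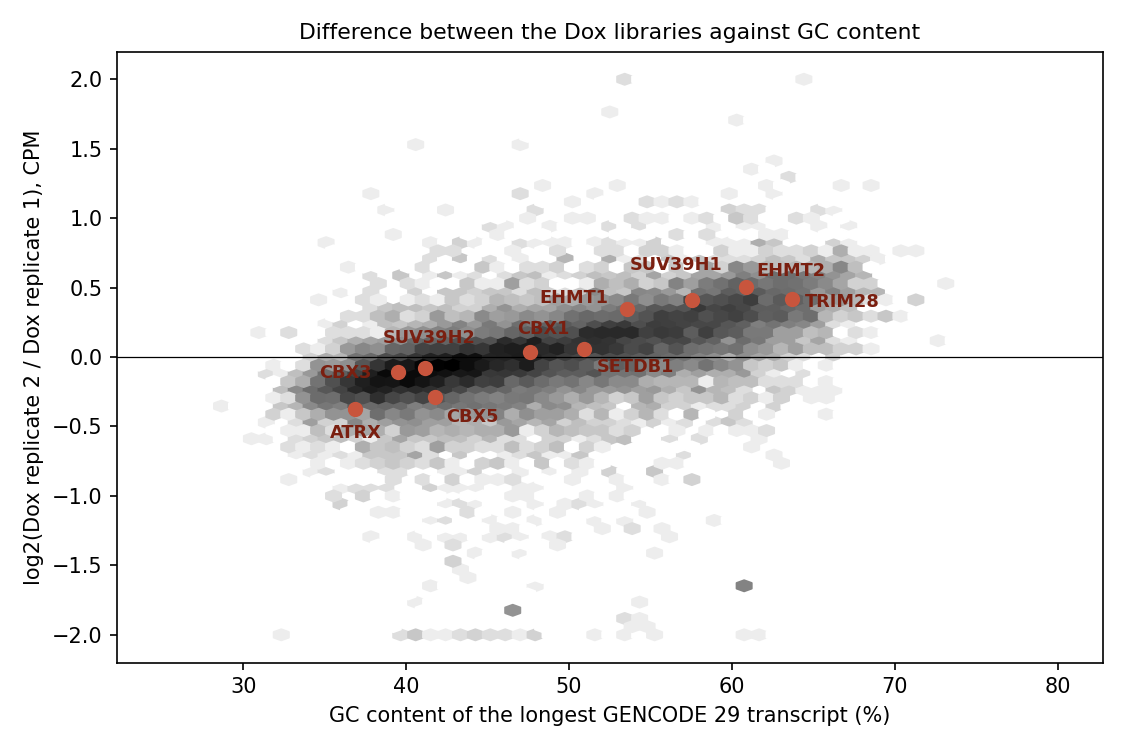
Log2 ratio of CPM in Dox replicate 2 to Dox replicate 1 (vertical axis, values beyond 2 drawn at 2) against GC content of the longest GENCODE 29 transcript in percent (horizontal axis). Grey hexagons hold all tested genes with reads in both libraries, darker for more genes on a log scale, and red points are the 10 genes, which run from -0.38 for ATRX to 0.51 for EHMT2.

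The transcripts to which reads were assigned also differed between libraries for some genes. How often such lengths lie apart between the groups among all tested genes was not counted. The deposited length of a gene is the mean length of its transcripts weighted by their estimated abundance. For SETDB1 it was 2570 and 2504 bases in DMSO and 2405 and 2162 bases in Dox, lower in both Dox libraries, against a longest GENCODE 29 transcript of 4437 bases. For SUV39H1 it was 2876, 2871 and 2871 bases in DMSO 1, DMSO 2 and Dox 1 and 2379 bases in Dox replicate 2. SUV39H2 had 2414 and 2354 bases in DMSO and 2554 and 2552 bases in Dox, longer in both Dox libraries. EHMT1 had 3342 and 3072.5 bases in DMSO and 3050 and 3025 bases in Dox, shorter in both Dox libraries. The groups overlapped for EHMT2 (2585 to 2831 bases), CBX1 (2121 to 2156 bases) and ATRX (5782 to 6155 bases). TRIM28 stayed between 1082.5 and 1163.4 bases, far under its longest transcript of 2960 bases, and its TPM is computed on those shorter lengths. CBX3 varied from 1932 to 1951 bases and CBX5 from 10887 to 11071 bases. Processed pseudogenes of the HP1 genes took few reads: over 13 CBX1 and CBX3 pseudogene rows the highest value was 8.06 counts (CBX3P9), and CBX5P1 had at most 4.

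The rest of the pathway held calls in both directions, at a share near that of all tested genes, 30.3%. Of 56 further genes in 7 lists, 54 were tested, 6 were higher and 11 lower in Dox by edgeR (11.1% and 20.4%, against 16.5% and 13.8% of all tested genes), with a median log2 fold change of -0.08. DESeq2 gave 6 and 11 as well, and with library size alone as the scale the counts were 7 and 8. Over all tested genes DESeq2 called 2288 higher and 1847 lower, and library size alone gave 3027 and 1668. Leaving out either Dox library raised both pathway counts and leaving out either DMSO library lowered both. The calls over all tested genes moved the same way. Of 11 genes for H3K9 demethylases, which remove the mark, 5 fell and 2 rose, beside 13.8% and 16.5% of all tested genes, and the median log2 fold change was -0.17. KDM7A, a demethylase of H3K9 and H3K27, went from 28.1 and 27.3 CPM to 13.1 and 12.6 CPM and fell by 1.11 on the log2 scale (SE 0.09, edgeR adjusted p = 0.00045). PHF2 went from 29.5 and 29.2 CPM to 20.7 and 23.2 CPM and fell by 0.42 (SE 0.09, edgeR adjusted p = 0.0167). KDM1A (-0.34), KDM3B (-0.28) and KDM4A (-0.35) were the other falls, and PHF8 (0.48) and JMJD1C (0.47) the rises, named after their values were seen.

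Of the genes for HP1 partner proteins, 12 in all, 2 were called higher and 2 lower, near the 30.3% of all tested genes called either way (median log2 fold change -0.11). LBR, the lamin B receptor that holds HP1-bound chromatin at the nuclear envelope, fell from 27.6 and 26.2 CPM to 16.3 and 14.5 CPM (log2 fold change -0.81, SE 0.10, edgeR adjusted p = 0.00197). SENP7, a SUMO protease that acts on HP1-alpha, fell from 18.8 and 18.9 CPM to 12.7 and 10.7 CPM (log2 fold change -0.69, SE 0.11, edgeR adjusted p = 0.00596). SP100, a component of PML nuclear bodies, rose from 55.8 and 57.4 CPM to 76.6 and 71.1 CPM (log2 fold change 0.38, SE 0.08, edgeR adjusted p = 0.0119). CHAMP1, which binds HP1 and POGZ, had 16.1 and 11.7 CPM in DMSO and 26.2 and 19.7 CPM in Dox and rose by 0.73 (SE 0.19, edgeR adjusted p = 0.0326). Its libraries spread widely within both groups.

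Of the 9 tested partners of H3K9 methyltransferases and other methyltransferases, 1 was called higher and 0 lower by edgeR (median log2 fold change -0.02). Of all tested genes 16.5% were higher and 13.8% lower, the background for each list in this paragraph. SETDB2 and MECOM, lower at an unadjusted p of 0.0204 and 0.0202, and PRDM2, higher at an unadjusted p of 0.0392, did not pass the adjustment. The riser was WIZ, a zinc finger partner of G9a and GLP, with 14.4 and 14.5 CPM in DMSO and 18.3 and 21.9 CPM in Dox (log2 fold change 0.48, SE 0.11, edgeR adjusted p = 0.0227). ATF7IP, the cofactor that stabilises SETDB1, had 63.5 and 59.98 CPM in DMSO and 78.1 and 64.7 CPM in Dox and did not pass (log2 fold change 0.21, edgeR adjusted p = 0.18). Chosen after its value was seen, it stood higher in both Dox libraries while SETDB1 fell. Of 4 genes, 3 for the HUSH complex, which spreads H3K9 trimethylation with SETDB1, and its effector MORC2, 0 rose and 0 fell by edgeR, and 0 had an unadjusted p under 0.05. Their log2 fold changes ran from -0.05 (TASOR) to 0.17 (MPHOSPH8). Of 5 tested KRAB zinc finger genes, ZNF91, a repressor of SVA elements, rose by 0.76 (25.015 and 25.1 CPM to 48.1 and 37.0 CPM, edgeR adjusted p = 0.00744). ZNF93, a repressor of L1 elements, fell by 0.80 (3.45 and 3.73 CPM to 2.43 and 1.7 CPM, edgeR adjusted p = 0.031). Zinc finger genes of this family are near copies of each other, so reads shared between them make single values uncertain.

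Of 7 genes for H3.3 and its deposition, 3 were called lower and 0 higher by edgeR, beside 13.8% and 16.5% of all tested genes (median log2 fold change -0.16), with 0 higher at an unadjusted p under 0.05. H3F3B went from 247 and 253 CPM to 166 and 171 CPM and fell by 0.57 (SE 0.07, edgeR adjusted p = 0.0025). H3F3A went from 113 and 110 CPM to 77.5 and 70.7 CPM and fell by 0.59 (SE 0.08, edgeR adjusted p = 0.00325). Both encode the same H3.3 protein, and H3F3A has processed pseudogenes that can share its reads. The third, ASF1A, a histone chaperone named after its value was seen, fell by 0.60. DAXX, the chaperone that works with ATRX and also chosen after its value was seen, had 32.0 and 31.7 CPM in DMSO and 31.4 and 37.9 CPM in Dox, and did not pass (0.12, edgeR adjusted p = 0.427). The 6 deacetylase and Mi-2 genes had 0 rises and 0 falls by edgeR, beside 16.5% and 13.8% of all tested genes (median log2 fold change -0.16). HDAC1 and CHD4, at an unadjusted p of 0.0263 and 0.0235, were lower without passing the adjustment.

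**Figure D5:**
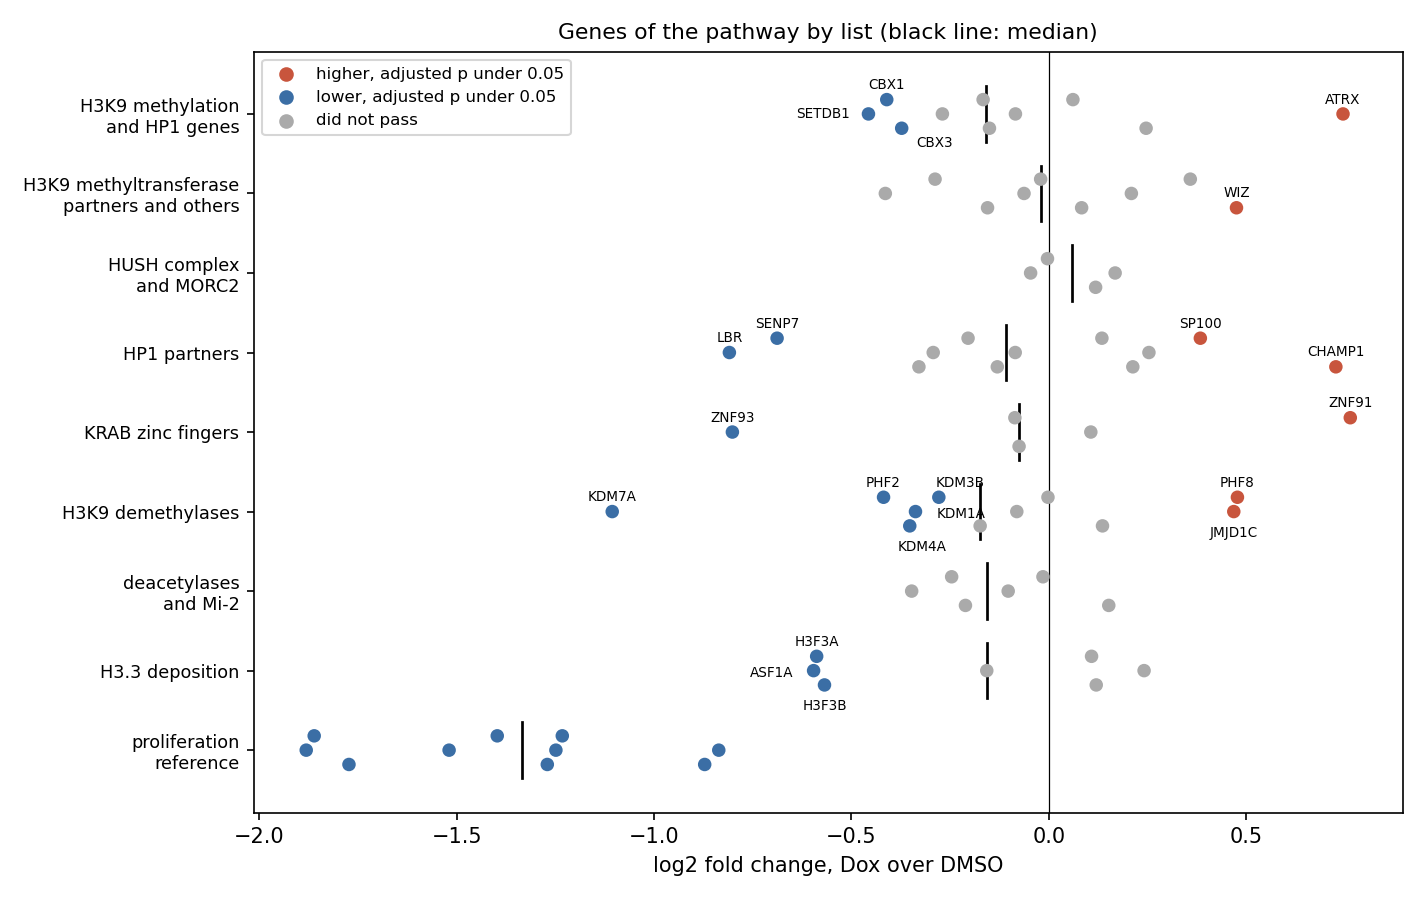
Log2 fold change of Dox over DMSO (horizontal axis) of each tested gene by list, with the list's median as a black line and colour for genes past an edgeR adjusted p of 0.05. The 10 genes described here and the 7 pathway lists spread on both sides of 0, with KDM7A lowest at -1.11 and ZNF91 highest at 0.76, while the proliferation genes lie at -0.84 and below.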

How the data were processed

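Total RNA of BJ fibroblasts was measured in 2 DMSO and 2 Dox libraries, grouped by title. The submitters' processing notes name RSEM, STAR, cutadapt and Picard, with hg38 as the build. Their versions, and which annotation was used, were not given in the sources used here. Per the file headers, the authors deposited expected counts (RSEM estimates of reads per gene), TPM values and abundance-weighted transcript lengths.

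Expected counts were rounded, filtered with edgeR's filterByExpr (minimum count 10, minimum total 15), scaled by TMM and tested with glmQLFit and glmQLFTest on group alone. Adjusted p-values are Benjamini-Hochberg values over all tested genes, with a threshold of 0.05. SE is the log2 fold change divided by the square root of F. Coordinates and GC content come from GENCODE 29 (GRCh38), which held 99.5% of identifiers, and windows from RefSeq. R 4.3.3, edgeR 4.0.16, limma 3.58.1 and DESeq2 1.42.0 were used. The fits were also run on simulated counts with known changes. That simulation gave both groups the same spread and no GC trend, so it does not cover the difference between the Dox libraries.

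The genes and lists were chosen with earlier results of these data known. Named were all 10 genes, and per list any single gene that passed, the 2 genes with the smallest adjusted p in the commoner direction (both directions where equal), pseudogenes and genes starting within 1000 bases on the other strand. Promoter motifs, ATF7IP and DAXX were chosen after values were seen.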

Additional observations from a re-analysis of the deposited data

How the results depend on the processing

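Of 17 alternatives, SETDB1 kept its call in 11 and CBX1 and CBX3 in 12, and ATRX kept it in 14, and each kept its direction in all 17. With limma on log2(TPM + 1) and on log2(TPM + 0.1), 0 of the 10 genes were higher and 0 lower, as were 0 and 0 pathway genes, and signs turned for SUV39H1 (0.0296 and 0.0571), EHMT1 (0.0665 and 0.067) and EHMT2 (0.0492 and 0.0389). These fits called 596 and 637 of all 16749 tested genes higher, and 198 lower in each. With TPM rescaled by TMM, added after seeing the data, 1 of the 10 was higher and 2 lower, and 2 pathway genes were higher. Over all tested genes 1765 were higher and 1563 lower there. For a fold above 1.5 (edgeR glmTreat), 0 of the 10 were higher and 0 lower, and 0 pathway genes were higher and 1 lower. Of all tested genes 787 were higher and 480 lower by that test. GC-trend offsets gave 2 of the 10 higher, 12 pathway genes higher and 17 lower. They also called more of all tested genes, 4281 higher and 3278 lower, against 2764 and 2309 in the main fit. With the replicate block and GC-trend offsets, 2 of the 10 and 12 pathway genes were higher, beside 4109 of all tested genes. Same-numbered replicates share only a number (correlation of their deviations 0.04). The replicate block alone gave 1 of the 10 higher and 3 lower, and 7 and 12 pathway genes, and changed no call among the 10. That fit called 2972 of all tested genes higher and 2511 lower. Leaving out each library in turn gave 1 to 3 of the 10 higher and 0 to 6 lower, and 1 to 14 pathway genes higher and 5 to 23 lower. EHMT2 was -0.36 and TRIM28 -0.16 without Dox replicate 2, and EHMT2 was 0.13 and TRIM28 0.24 without Dox replicate 1. A lone library is assumed to vary like the other group's pair, and the Dox pair varied most. The difference in CBX5 share was 5.61 points of TPM, 10.8 points of CPM, and 4.49 to 6.74 points with a library left out. The cause of these changes was not tested. The median log2 fold change of all genes was 0.12 without the filter on low counts and 0.13 on log2(TPM + 0.1). SUV39H1 had under 100 counts in each library, the lowest depth of the 10 genes, and what part depth has in its SE was not tested.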
